A study of Solanum lycopersicum with 6 samples.

Results

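Chlorophyll a/b-binding proteins hold the antenna pigments of the chloroplast and pass absorbed light to the photosystems, and their nuclear genes form the CAB family. In tomato, CAB4 and CAB5 encode antenna proteins of photosystem II and CAB6A encodes an antenna protein of photosystem I. A green fruit keeps working chloroplasts, which turn into chromoplasts as it ripens and loses its chlorophyll, so transcripts of this family serve as a sign of the green state. The members were all probe sets whose platform annotation gives a gene symbol of CAB followed by a digit. The rule found 3 genes with 1 probe set each, CAB4, CAB5 and CAB6A, out of 803 genes with a symbol and 10101 probe sets tested. In the RefSeq gene table (assembly SLM_r2.1), 17 genes carry such a symbol or synonym, and the other 14 were not analysed here. Members of this family resemble each other in sequence, so a probe set may also have caught transcripts of relatives, and how far was not tested.

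The samples were mature green fruits of Micro-Tom, a dwarf tomato cultivar, with 3 arrays from plants grown under normal conditions (control) and 3 arrays from plants grown under drought. All plants stood in a greenhouse kept at 25 °C during the day and at 20 °C in the evening. Fruits were taken 30 to 40 days after flowering. Control plants were given liquid fertilizer at a 500-fold dilution, while stressed plants got that dilution weekly, so that drought came together with a weekly feeding schedule. The tissue label says mature green and the series' design text calls the plants ripening, and no label says whether a replicate is a separate plant or a pool. P-values therefore measure the spread between these arrays, which may be technical. The arrays are of whole fruit RNA, in which fewer green cells and less RNA per green cell cannot be told apart.

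The deposited values are read here as log2 probe set summaries, and they lay between 5.46 and 15.83. They varied very little between arrays, with a median range over the 6 arrays of 0.00013, and the largest range among 69 spike-in control probe sets was 0.00047. A difference on this scale may therefore not equal a fold change. Control replicate 3 stood apart from the other controls. It lay at 1.90 on the first principal component of all probe sets, which held 90.95% of the variance, between the drought arrays at 6.81 to 7.02 and the other controls at -12.38 and -10.28. The CAB differences are therefore also given without that array.

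The CAB genes were detected at quite different brightness, which between probe sets also reflects the probes and is no order of transcript levels. CAB6A lay at the 91.3rd to 91.5th percentile of the tested probe sets of each array, CAB4 at the 79.9th to 80.8th and CAB5 at the 35.9th to 40.2nd. Of the other green fruit markers looked for, the Rubisco small subunit and GLK genes, none was found by symbol. The CAB genes were thus the only green fruit markers of this list that were found. Of 11 ripening markers, 8 were found. The polygalacturonase gene PG2, whose enzyme degrades pectin in ripe fruit, lay at the 6.46th to 6.47th percentile of the arrays, and the ripening ACC synthase gene ACS2 at the 8.75th to 8.77th. The phytoene synthase gene Psy1 of the carotenoid pathway lay at the 85.2nd to 85.4th percentile and the MADS-box gene TDR4 at the 86.4th to 86.7th. The summed log2 values of the 8 ripening markers ran from 58.77 to 59.23 in control and from 58.70 to 58.79 in drought, and 0 of the 8 passed the test described next. In RIN, TDR4 and PG2 the drought arrays all lay below the control arrays, as in 14.3% of all probe sets. Drought minus control was -0.14, -0.018 and -2.1e-06 in these genes. The groups overlapped in the other ripening markers. Of 4 epidermis markers 3 were found, with summed log2 values of 29.35 to 29.37 in control and 29.32 to 29.34 in drought, and 0 passed. The epidermis sum was thus lower in every drought array. By gene, the drought arrays all lay below the control arrays in ltpg1 and TSW12, as in 14.3% of all probe sets, and overlapped them in LE16. The part of the epidermis in the results was not tested. Of 4 seed markers none was found by symbol.

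No CAB gene passed the test for a change in drought. In limma over all probe sets, with Benjamini-Hochberg adjustment and a threshold of 0.05, 0 of 3 passed, against 77 of all 10101 probe sets (0.762%). The drought and control arrays overlapped in all 3 genes, while they did not overlap in 34.8% of all probe sets. The median difference of the 3 genes, drought minus control, was that of CAB4 at -0.0030 on the log2 scale, and the median over all tested probe sets was -1.1e-07.

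CAB5, an antenna gene of photosystem II, had log2 values of 7.30, 7.27 and 7.43 in control replicates 1 to 3 and of 7.39, 7.33 and 7.22 in drought replicates 1 to 3. The highest value belonged to control replicate 3 and the lowest to drought replicate 3, and the groups overlapped over most of their span. The control mean was 7.33 ± 0.086 and the drought mean 7.31 ± 0.086 (SD, n = 3 each). The difference was -0.022 ± 0.067 (SE, limma adjusted p = 0.895), with a 95% interval from -0.20 to 0.16. On this scale the arrays thus allow a fall or a rise of that size in CAB5, and the spread within each group was several times the difference between them. Without control replicate 3 the difference was 0.027 (adjusted p = 0.831), and without drought replicate 3 it was 0.024 (adjusted p = 0.917), so its sign rested on either of these arrays.

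CAB4, the other photosystem II antenna gene, read 9.597, 9.599 and 9.646 in the control arrays. In drought it read 9.630, 9.621 and 9.582. Again control replicate 3 was the highest array and drought replicate 3 the lowest. The difference was -0.0030 ± 0.021 (SE, limma adjusted p = 0.960), with a 95% interval from -0.059 to 0.053. It turned to 0.013 without control replicate 3 (adjusted p = 0.705) and to 0.011 without drought replicate 3 (adjusted p = 0.845).

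CAB6A, the photosystem I antenna gene, read 10.694, 10.693 and 10.699 in control and 10.697, 10.697 and 10.691 in drought. The same arrays stood at both ends. The difference was -0.00061 ± 0.0026 (SE, limma adjusted p = 0.929), with a 95% interval from -0.0076 to 0.0064, and it was 0.0013 both without control replicate 3 (adjusted p = 0.787) and without drought replicate 3 (adjusted p = 0.848). Whether the groups of CAB6A overlapped depended on scaling. After quantile normalization its 3 drought arrays all lay below its 3 control arrays, by -0.0074 ± 0.0029 (SE, adjusted p = 0.170), as did 34.2% of all probe sets. With every array centred on its own median, the groups were again separated, by -0.0061 ± 0.0027 (SE, adjusted p = 0.0659), as in 91.7% of all probe sets. The array medians themselves ran from 7.897 to 7.907, a wider span than the whole range of CAB6A.

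**Figure D1:**
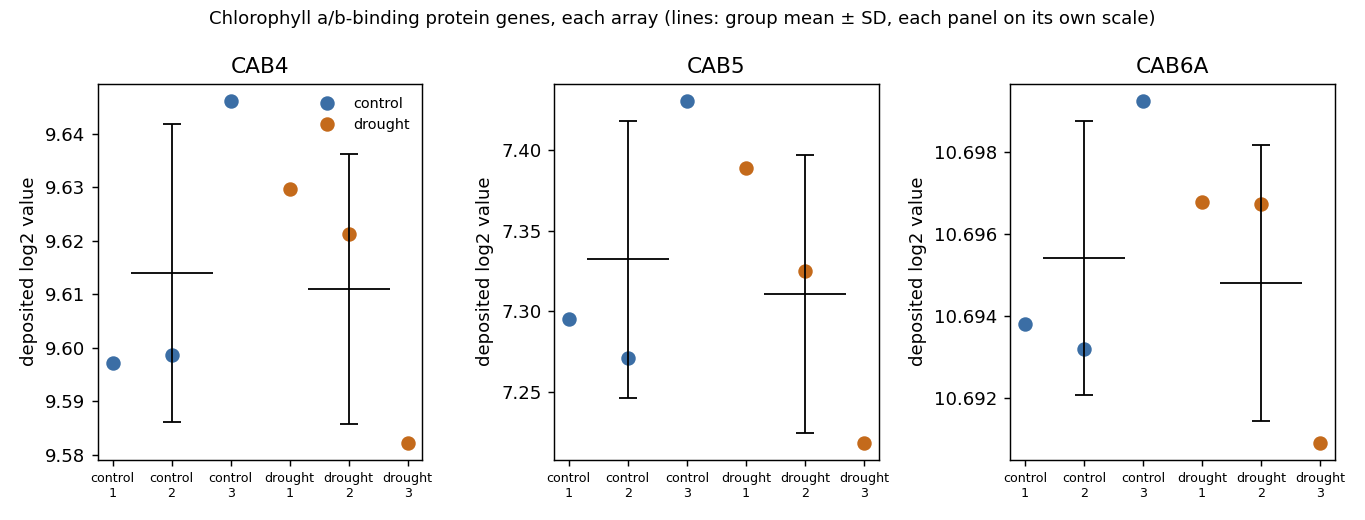
Deposited log2 value of CAB4, CAB5 and CAB6A on each of the 6 arrays (blue control, orange drought), with the group mean as a horizontal line and the SD as an error bar (n = 3 each), each gene on its own vertical scale. Control replicate 3 is the highest and drought replicate 3 the lowest array in all 3 genes, and the group means lie within each other's SD.

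**Figure D2:**
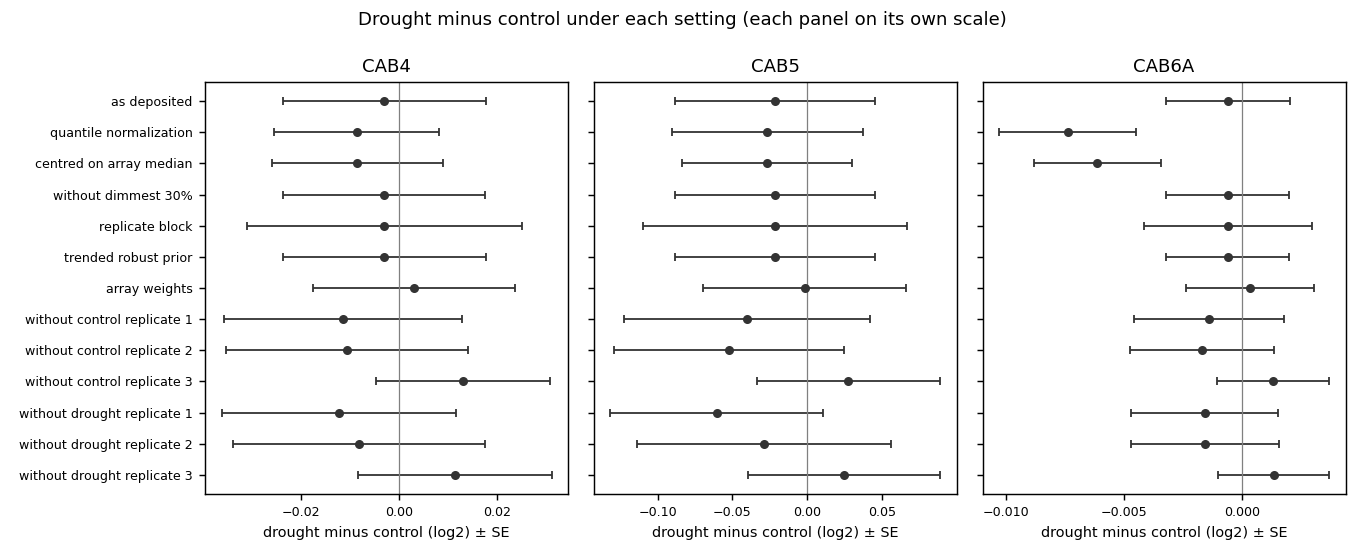
Drought minus control difference (log2, horizontal axis) of each CAB gene with its SE under the deposited values and 12 other settings. Points lie on both sides of 0 in every gene, and CAB6A stands farthest below 0 after quantile normalization (-0.0074) and centring (-0.0061).

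The CAB genes followed one another from array to array. From high to low, all 3 genes ran control replicate 3, drought replicate 1, drought replicate 2, then control replicates 1 and 2 (in the opposite order in CAB4), then drought replicate 3. Over the 6 arrays Pearson's r was 0.98 between CAB4 and CAB5, 0.99 between CAB4 and CAB6A and 0.96 between CAB5 and CAB6A (Spearman's rho 0.94, 0.94 and 1.0). These are descriptions over arrays of 2 groups, and the probe sets of an array share its RNA and its scaling. Taken on deviations from the group means, r was 0.98, 0.99 and 0.96 in the same order. Without control replicate 3 and drought replicate 3, the arrays farthest from the median, r was 0.92, 0.97 and 0.86 over the other 4. The antenna genes of both photosystems thus varied together between samples of the same group on the deposited values.

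The likeness of CAB4 and CAB5 did not depend on scaling, with r of 0.98 after quantile normalization and 0.98 after centring. That of CAB6A did. With CAB4 its r was 0.43 after quantile normalization and 0.72 after centring, and with CAB5 it was 0.37 and 0.71. The genes also differed in how far they moved. The range over the arrays was 0.21 in CAB5, 0.064 in CAB4 and 0.0083 in CAB6A, so that of CAB5 was 25.4 times that of CAB6A on the deposited scale. A range at least as large was seen in 1.49% of all probe sets for CAB5, 3.51% for CAB4 and 9.999% for CAB6A. All 3 ranges exceeded the largest spike-in range.

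In CAB5, control replicate 3 lay 0.15 above the mean of the other controls and drought replicate 3 lay 0.14 below the mean of the other drought arrays. In CAB4 these gaps were 0.048 and -0.043, and in CAB6A 0.0057 and -0.0058. Within each gene, the gap in control was thus about as large as the gap in drought and of the opposite sign. Across all tested probe sets, 556 (5.504%) had control replicate 3 as the highest and drought replicate 3 as the lowest array, and among the 417 with a range of at least 0.05 there were 14 (3.36%). Drought replicate 3 had the highest median of the arrays (7.907).

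Besides the antenna, other proteins of the thylakoid take part in the light reactions, which carry electrons from water toward carbon fixation. Of the names on that list, 6 genes were found, namely PSBO, PSBP, PsbQ and PSBR of the oxygen-evolving side of photosystem II, PETE, which encodes the electron carrier plastocyanin, and LOC543978, listed with the synonym PSAD for a subunit of photosystem I. In drought, 0 of 6 passed in limma, and 0 of 6 had separated arrays. Their differences lay between -0.00083 and 0.0016 (median 0.00019), and 4 were above 0. The genes with the smallest p were PSBR (-3.2e-05, adjusted p = 0.530), LOC543978 (+0.0016, adjusted p = 0.729) and PsbQ (+0.00034, adjusted p = 0.817), the latter 2 below 0 after quantile normalization and centring. PSBR passed after centring (adjusted p = 0.0201) and so did PsbQ (adjusted p = 0.0217), where 9406 of all probe sets did.

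Some of these genes shared the array pattern of the CAB genes on the deposited values. With CAB4, r over the 6 arrays was at least 0.9 in 4 of the 6, against 126 of 10098 other probe sets (1.25%). With CAB5 and with CAB6A it was so in 2 of the 6, against 1.23% and 1.11% of other probe sets. PSBO, which stabilizes the manganese cluster that splits water, was closest, with r of 0.98 with CAB4, 0.96 with CAB5 and 0.98 with CAB6A. Its log2 values were 11.010, 11.011 and 11.017 in control and 11.015, 11.013 and 11.007 in drought. PSBO and PETE had control replicate 3 highest and drought replicate 3 lowest, as the CAB genes did. For PETE, r was 0.96 with CAB4 and 0.94 with CAB5. PSBP had an r of 0.92 with CAB4, and PsbQ one of 0.91. PSBO, PETE and PSBP were named after their values were seen. PSBR, the brightest of the 6, was least like the CAB genes (r of 0.62 with CAB4), and its range was 9.6e-05.

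This likeness also depended on scaling. After quantile normalization 0 of the 6 reached an r of 0.9 with CAB4, and the median r fell from 0.92 to 0.0084. After centring the median was 0.46. CAB6A kept a median r of 0.80 with them after quantile normalization and 0.93 after centring. The median over all other probe sets was also high, at 0.74 and 0.78. After quantile normalization 2 of the 6 reached an r of 0.9 with CAB6A, against 1074 of 10098 other probe sets. After centring 3 of the 6 did, against 101 of 10098. The range of PSBO was 0.010 and the others were smaller, so a shift of the array median moved these genes by about as much as, or more than, their own range.

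**Figure D3:**
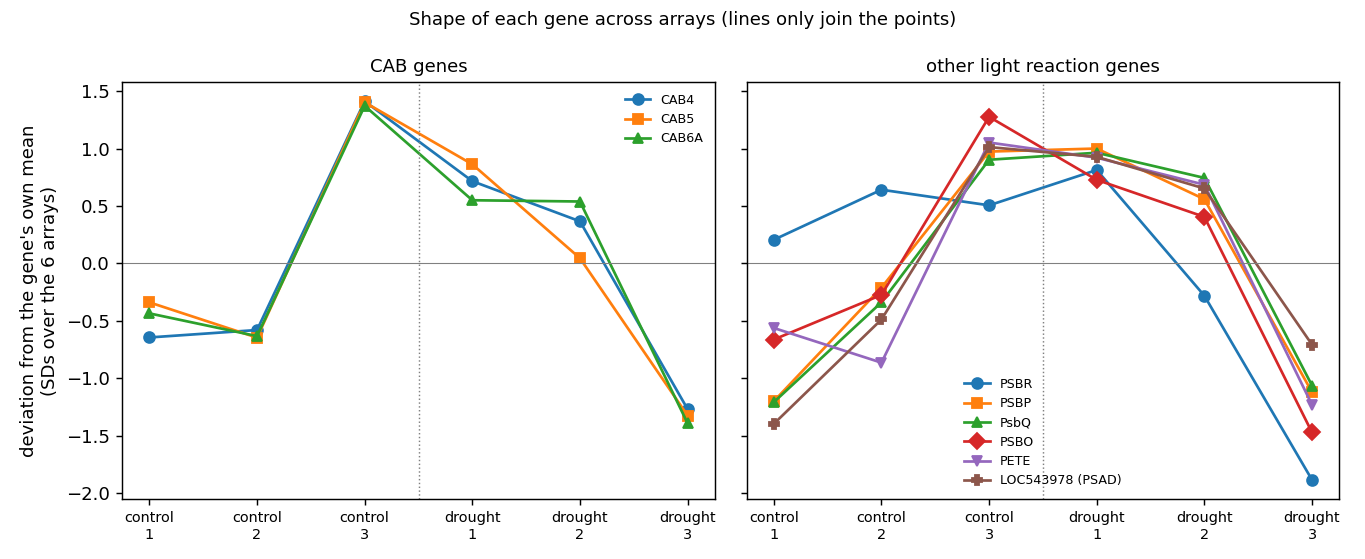
Each gene's deviation from its own mean over the 6 arrays, in units of its SD, for the 3 CAB genes (left) and the 6 other light reaction genes (right), on the deposited values. The CAB genes overlie each other, and PSBO and PETE share their highest array, control replicate 3, and their lowest, drought replicate 3.

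By r, genes of the wider chloroplast programme were mostly unlike the CAB genes on the deposited values. Of the list of chlorophyll synthesis and breakdown, which covers tetrapyrrole enzymes, 2 genes were found. GSA-AT, the aminotransferase that makes 5-aminolevulinic acid, read 9.147, 9.147 and 9.149 in control and 9.150, 9.151 and 9.151 in drought (difference 0.0029 ± 0.00082, SE, limma adjusted p = 0.138). Its drought arrays all lay above its control arrays, as in 20.5% of all probe sets, but its difference fell to -0.00085 after quantile normalization and -0.0027 after centring. HO2, a gene of heme oxygenase, which cleaves heme to biliverdin, passed at +4.3e-05 (adjusted p = 0.0495), against 0.525% of probe sets that passed upward, and was below 0 after quantile normalization (-0.0033) and centring (-0.0055), where it passed in the opposite direction (adjusted p = 0.0201), as most probe sets did. That difference was smaller than the largest spike-in range, and it missed the threshold with the replicate block (adjusted p = 0.159). It also missed with any array left out except control replicate 3 (adjusted p = 0.0898 to 0.188). On the deposited values neither gene followed the CAB pattern, with r between -0.24 and 0.25 over the 3 CAB genes. With CAB6A, r was 0.91 for HO2 after quantile normalization, and 0.86 for GSA-AT and 0.78 for HO2 after centring, where the median over all other probe sets was also high (0.74 and 0.78).

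The regulators of light responses and plastid number gave 12 genes, of which 0 passed. Their median difference was -0.00018, with 4 genes above 0 and 8 below. In 4 genes the drought arrays all lay higher and in 5 all lower, against 20.5% and 14.3% of all probe sets. The smallest p-values belonged to the phytochrome gene PHYA (+0.00018, adjusted p = 0.0539), to DDB1 (+5.1e-05, adjusted p = 0.0598), the gene mutated in the high pigment-1 tomato, and to sig1 (+0.0025, adjusted p = 0.0703), which encodes a sigma factor of the plastid RNA polymerase. The ranges of PHYA (0.00024) and DDB1 (6.5e-05) over the arrays were below the largest spike-in range. PHYA and DDB1 were below 0 after quantile normalization and centring and sig1 after centring, while sig1 passed without control replicate 3 (adjusted p = 0.0215). After centring, PHYA (adjusted p = 0.0205) and DDB1 (adjusted p = 0.0201) passed downward, as most probe sets did. With array weights PHYA (adjusted p = 0.0443) and sig1 (adjusted p = 0.0460) passed. COP1, a repressor of light responses named after its values were seen, was the single regulator with an r of at least 0.9 with a CAB gene. Its r with CAB5 was 0.92 on the deposited values, -0.25 after quantile normalization and 0.16 after centring. Its range of 0.00023 was below the largest spike-in range. COP1, Cry1b and CRY2 had control replicate 3 highest and drought replicate 3 lowest, 3 of the 12 (25%), against 5.504% of all probe sets. Cry1b and CRY2 were also named after their values were seen.

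Of 6 genes of thylakoid protection, which cover the xanthophyll cycle and carotenoid steps, 0 passed, with a median difference of -6.7e-05. The zeaxanthin epoxidase gene ZEP (-0.0025, limma adjusted p = 0.110), the lycopene cyclase gene LCY1 (-0.00048, adjusted p = 0.150) and the carotene hydroxylase gene CrtR-b1 (+0.00028, adjusted p = 0.374, below 0 after quantile normalization and centring) came nearest. In 2 of the 6, ZEP and LCY1, the drought arrays all lay below the control arrays, against 14.3% of all probe sets, and in 0 all above. ZEP had control replicate 3 highest and drought replicate 3 lowest, 1 of the 6 (16.7%), against 5.504% of all probe sets. After centring, ZEP and LCY1 (adjusted p = 0.0201 each) and CrtR-b1 (adjusted p = 0.0255) passed downward, as most probe sets did. None of the 6 had an r of 0.9 with a CAB gene on the deposited values. CRTL-E-1 came closest, with r of 0.898 with CAB4, 0.863 with CAB5 and 0.846 with CAB6A. Its r with CAB4 was -0.030 after quantile normalization and 0.28 after centring. PTOX and VDE went the other way, with r of -0.71 and -0.70 with CAB4. CRTL-E-1, PTOX and VDE were named after their values were seen. Of the carbon fixation list, TPI (triose phosphate isomerase) alone was found, at -5.7e-06 (adjusted p = 0.376, and 0.0201 after centring) and with an r of -0.48 with CAB5. The range of TPI, 1.1e-05, was also below the largest spike-in range.

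**Figure D4:**
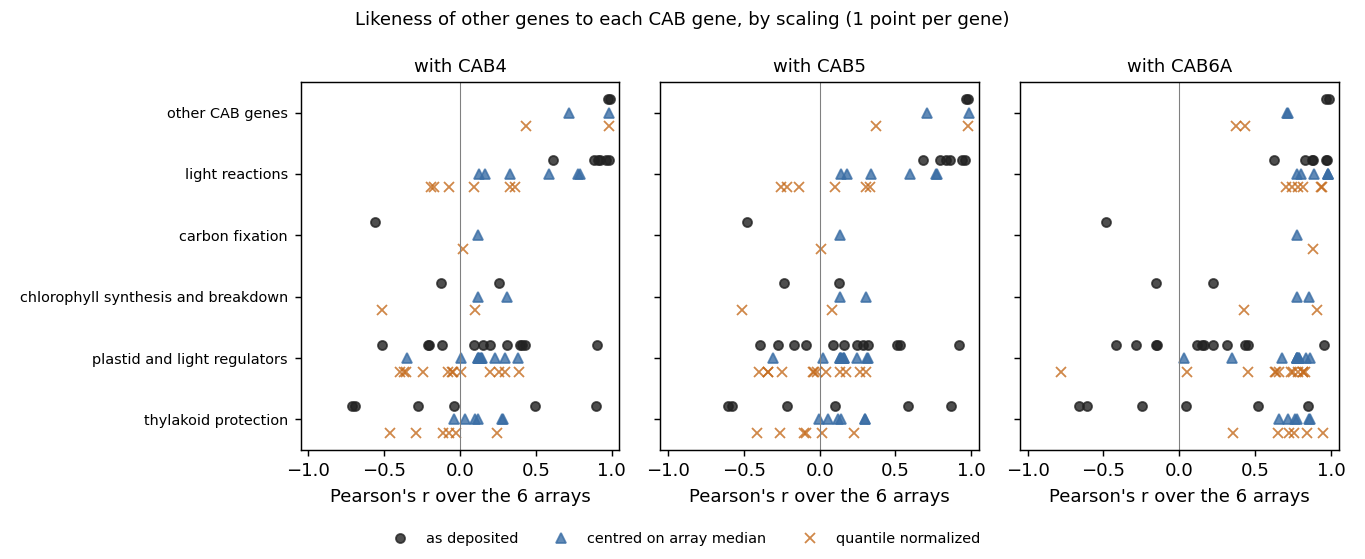
Pearson's r over the 6 arrays (horizontal axis) between each CAB gene and the genes of each list (1 point per gene), on the deposited values (black circles), after centring each array on its median (blue triangles) and after quantile normalization (orange crosses). On the deposited values the light reaction genes lie between 0.62 and 0.98. The single carbon fixation gene lies below 0, and the other lists spread to both sides of 0. With CAB6A most genes move to high r after either rescaling.

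Among 103 other probe sets with a gene symbol and a range of at least 0.05, the rule for like genes gave nearly the same names for each CAB gene. LOC778362 was first for all 3, with r of 0.94 with CAB4 and 0.92 with both CAB5 and CAB6A. Its log2 values were 6.71, 6.70 and 6.86 in control and 6.77, 6.75 and 6.70 in drought. LOC544312 was the next for all 3, with r of 0.87, 0.84 and 0.82. The metallothionein gene MT2 followed for CAB4 (0.87) and CAB5 (0.81), and TPP3 for CAB6A (0.82). Without control replicate 3, r fell to 0.76, 0.67 and 0.65 for LOC544312, to 0.78 and 0.68 for MT2 and to 0.66 for TPP3. Without drought replicate 3 the r of these genes was higher instead (0.85 to 0.98). For LOC778362, r ran from 0.91 to 0.97 with 1 array left out. The gene most opposed to all 3 was CHS1, which encodes chalcone synthase, the entry enzyme of flavonoid synthesis. CHS1 read 8.966, 8.9999 and 8.823 in control and 8.906, 8.898 and 9.005 in drought, so control replicate 3 was its lowest array and drought replicate 3 its highest. Its r was -0.96 with CAB4, -0.93 with CAB5 and -0.97 with CAB6A. In drought CHS1 differed by 0.0068 (limma adjusted p = 0.972). After quantile normalization the r of CHS1 with CAB6A was -0.15, whereas with CAB4 and CAB5 it moved by less than 0.1. With CAB6A, r also dropped to 0.14 for LOC778362, -0.082 for LOC544312 and -0.16 for TPP3 after quantile normalization, and to 0.57, 0.36 and 0.20 after centring.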

How the data were processed

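Biotin-labelled cRNA from 100 ng of total RNA was hybridized to 1-colour arrays, per the labels' protocols. The deposited values are taken as log2, since none reaches 16, the log2 ceiling of a scanner, and the authors' background correction, normalization and summary are not given in the sources used here. Of 10209 probe sets, 108 controls of the array maker were left out. Symbols came from the platform annotation (909 probe sets with 1 symbol, 9192 with none), and list genes were matched by symbol or RefSeq synonym. DFR, which carries the synonym FNR, was kept out of the light reactions. For genes with several probe sets the brightest on average was used.

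Drought and control were compared in R 4.3.3 with limma 3.58.1 (lmFit, eBayes, two-sided, Benjamini-Hochberg over 10101 probe sets), without a block or filter, and the fit was tested on simulated data. That simulation drew independent noise for each probe set, without shifts of whole arrays. It therefore does not test how such shifts affect the fit. The CAB genes and the lists were chosen with earlier results of these data known. Named were all CAB genes, the genes of a list with up to 5 members or otherwise its 3 with the smallest p, and for each CAB gene the 3 named genes of highest and the 1 of lowest r with a range of at least 0.05. Same-numbered replicates did not deviate together (correlations -0.11 to -0.023). Such correlations cannot show whether the numbers pair samples that were grown or processed together. The number of arrays limits the precision.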

Additional observations from a re-analysis of the deposited data

How the results depend on the processing

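Of the 3 CAB genes, 0 passed under each of the 12 alternatives. Over all probe sets 77 passed, against 0 after quantile normalization, 9406 after centring, 0 with the replicate block, 391 with array weights and 0 to 546 with 1 array left out. Leaving out control replicates 1, 2 and 3 gave 7, 0 and 546, and leaving out drought replicates 1, 2 and 3 gave 1, 1 and 0. With 1 array left out, CAB4 ran from -0.012 to 0.013, CAB5 from -0.061 to 0.027, CAB6A from -0.0017 to 0.0013 and PsbQ from -5.3e-05 to 0.00085. Signs of CAB differences turned without control replicate 3 (CAB4 0.013, CAB5 0.027, CAB6A 0.0013), without drought replicate 3 (0.011, 0.024 and 0.0013) and with array weights (CAB4 0.0031, CAB6A 0.00032). After quantile normalization signs turned for PsbQ (-0.015), LOC543978 (-0.0058), GSA-AT (-0.00085), HO2 (-0.0033), DDB1 (-0.0031), PHYA (-0.0028) and CrtR-b1 (-0.0030). After centring they turned for PsbQ (-0.0052), LOC543978 (-0.0040), GSA-AT (-0.0027), HO2 (-0.0055), DDB1 (-0.0055), PHYA (-0.0053), sig1 (-0.0030) and CrtR-b1 (-0.0053), and PsbQ turned without control replicate 1 (-5.3e-05). Centring moves each array by more than most probe sets vary, and other causes were not tested. The replicate block rests on numbers that may pair no samples. With it CAB5 had an adjusted p of 0.949. The rescaled and leave-one-out correlations were chosen after seeing the data. Between CAB genes, r ran from 0.93 to 0.99 with 1 array left out.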
